A study of Homo sapiens with 16 samples.

Results

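Exposure of MCF10A cells to collagen I was compared with vehicle control by RNA-seq. MCF10A is an immortalised, non-tumorigenic human breast epithelial line, labelled diploid. The comparison comprised 8 of the 16 libraries of the study, chosen by the treatment in their titles, with 4 libraries of collagen-treated cells and 4 of control cells. All cells grew in medium with insulin, EGF, hydrocortisone, cholera toxin and horse serum, and all received DMSO. After 24 h in DMSO, the medium of the collagen group was replaced by one containing 0.05 mg/mL collagen with NaOH for polymerisation, and cells were taken 24 h later. The control group had its medium changed without collagen. Whether NaOH was added to the control is not stated, so that collagen and NaOH cannot be told apart here. The other 8 libraries received collagen with the DDR1 inhibitor (DDR1i, 4 libraries) or with the RUNX inhibitor AI-10-104 (RUNXi, 4 libraries). The authors removed collagen replicate 3 as an outlier. Values are therefore given without it (7 libraries) and, where stated, with it (8 libraries). List counts and log2 fold changes without such a statement are from the 7 libraries only.

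Collagen I is the main fibrillar collagen of breast stroma. Epithelial cells bind it through integrins, mainly α1β1 and α2β1, which connect to actin at focal adhesions, and through DDR1, a receptor tyrosine kinase that fibrillar collagen activates. Basal breast epithelial cells normally rest on a basement membrane of laminins and collagen IV, which they hold through the laminin receptor α6β4 at hemidesmosomes. Signals from both kinds of contact reach the ERK pathway and AP-1 transcription factors, and tension on the actin network regulates YAP and TEAD.

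The control libraries held 12184619 to 44332378 counts each and the collagen libraries 17570707 to 27695778. Control replicates 2 and 3 were the shallowest libraries, with 9.62% and 7.42% of the tested genes at 0 counts against at most 3.73% in the other 6. They were also the libraries that principal component analysis set apart, control replicate 2 on the first component (71.3 against −15.5 to 7.94) and control replicate 3 on the second (62.4 against −15.6 to −6.74). Collagen replicate 3 lay at −15.5 and −7.04. Markers of a breast epithelial line with basal features were detected. *KRT5* and *KRT14*, the basal keratin pair, ranged from 8854 to 11592 and from 3270 to 4757 normalised CPM (counts scaled to a common library size) over the 8 libraries. *TP63*, the basal lineage factor, ranged from 47.3 to 75.5 CPM, *KRT8* from 57.2 to 143 and *EPCAM* from 25.8 to 48.2. Defining markers of endothelial cells and leukocytes were at or near 0 (*CDH5* at 0 in all 8 libraries, *PTPRC* at 0.0289 CPM at most). Of 10 fibroblast markers, *PDGFRA* and *COL3A1* were at 0 in all 8 libraries and 4 passed the filter on low counts, of which *DCN* ranged from 5.87 to 30.1 CPM.

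No gene passed the main test of collagen replicates 1, 2 and 4 against the control. Among the gene lists examined, ribosomal proteins and oxidative phosphorylation subunits had higher medians than all genes tested. Chromatin regulators, a list defined by large transcripts, had a lower one. Transcript length moved with these differences. The members with an unadjusted p-value under 0.05 in those directions numbered 63, 35 and 21, and 4, 4 and 5 once the trend with length was removed from each library. Their medians in that fit, in the same order, were 0.06, 0.03 and −0.33, against −0.06 over all genes. Of 13092 genes tested with edgeR's quasi-likelihood test, 0 had a Benjamini-Hochberg adjusted p-value under 0.05 (0% of genes, smallest adjusted p = 0.106). At an unadjusted p-value under 0.05, called nominal here, 840 genes (6.42%) were higher and 914 (6.98%) lower with collagen. Nominal calls serve only to describe groups of genes, and the counts of each list below are to be read against these shares. With collagen replicate 3 included, 0 of 12952 genes passed (0%, smallest adjusted p = 0.803), and 440 (3.40%) were nominally higher and 342 (2.64%) nominally lower. The other tools gave other counts for the same 7 libraries. DESeq2 called 183 genes higher (2.57% of the 7130 with an adjusted p-value) and 231 lower (3.24%), all of them nominal in edgeR in the same direction. Limma voom with sample quality weights called 692 genes. With collagen replicate 3 included, both DESeq2 and limma voom called 0 genes. No source states whether replicates were separate cultures, so that p-values measure the spread between these libraries only. The genes named below are those of the collagen and RUNX axis, the 12 genes of either direction with the smallest p-value, and members of gene lists. List members that are not the top of their list were named after their values were seen.

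The gene with the smallest p-value was *NOTCH1* (chromosome 9, 139388885 to 139440500, GRCh37), which encodes a receptor of cell fate decisions. Its CPM was 107, 115, 123 and 83.3 in control replicates 1 to 4, and 55.1, 56.5, 105 and 38.5 in collagen replicates 1 to 4. Replicates 1, 2 and 4 lay below every control library, whereas collagen replicate 3 lay among them. The log2 fold change was −1.09 (standard error 0.18, edgeR adjusted p = 0.106) without replicate 3 and −0.74 (standard error 0.24, edgeR adjusted p = 0.803) with it. *EGFR* (chromosome 7, 55086710 to 55279321), the receptor for the EGF in the medium, had 207, 146, 221 and 257 CPM in the control libraries. With collagen it had 102, 102, 230.4 and 47.6 CPM. Its groups were again apart except for collagen replicate 3, with a log2 fold change of −1.30 (standard error 0.25) without that library and −0.78 (standard error 0.39) with it. *PRKAR2A*, a regulatory subunit of protein kinase A, had the largest log2 fold change of the 12 lower genes, −1.66 (standard error 0.30). It was at 50.2 ± 3.62 CPM (SD, n = 4) in the control, at 15.8 ± 7.93 (SD, n = 3) with collagen, and at 46.3 in collagen replicate 3.

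*PLEC*, one of the RUNX1 targets that the study followed, was also among the 12. It encodes plectin, which ties keratin filaments to hemidesmosomes. Its CPM was 1615, 1206, 1801 and 1584 in the control and 1006, 938, 1779 and 852 with collagen, so that replicate 3 was within the control range and the other 3 libraries below it. *SRRM2*, *POLR1A*, *URB1*, *GTF3C4*, *SPEN* and *ASXL2*, which act in splicing, in transcription by RNA polymerases I and III, in ribosome assembly and in transcriptional repression, had log2 fold changes from −1.60 (*ASXL2*) to −0.71 (*SRRM2*). *PTPRG*, a receptor tyrosine phosphatase, and *SOGA1* were at −1.11 and −1.15. For all 12 genes, collagen replicates 1, 2 and 4 were below every control library, as for 7.17% of all tested genes, and replicate 3 was not. These genes were chosen by their p-value, so that this separation is a description. DESeq2's adjusted p-values for them ranged from 5.35e-05 (*NOTCH1*, *SOGA1* and *POLR1A*) to 0.000926 (*ASXL2*) with 7 libraries.

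The gene with the smallest p-value among those with a higher mean was *COX6C*, a subunit of cytochrome c oxidase. Its CPM was 209, 235, 208 and 235 in the control and 329, 361, 251 and 427 with collagen. All 4 collagen libraries, replicate 3 included, were above all 4 controls, as for 1.57% of all tested genes. The log2 fold change was 0.76 (standard error 0.13, edgeR adjusted p = 0.106) without replicate 3 and 0.63 (standard error 0.15, edgeR adjusted p = 0.803) with it. *EBPL* and *RPL35A*, a ribosomal protein, had the same separation of all 8 libraries, at 60.4 ± 3.55 and 513 ± 10.2 CPM (SD, n = 4) in the control and 89.3 ± 17.2 and 671 ± 89.6 (SD, n = 4) with collagen. The remaining 9 were apart in 7 libraries only (6.45% of all tested genes lay higher in that way). *IER3*, an immediate-early gene of survival signalling, had 131, 109, 109 and 162 CPM in the control and 207, 172, 122 and 249 with collagen. *LSM3* and *SF3B6* of the spliceosome, *TBCA* of tubulin folding, *VMA21* of the proton pump of lysosomes, the non-coding *SNHG16*, *RPL31*, *RPL23A* and *RPS27L* had log2 fold changes from 0.56 (*RPL31*) to 0.83 (*LSM3*).

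**Figure D1:**
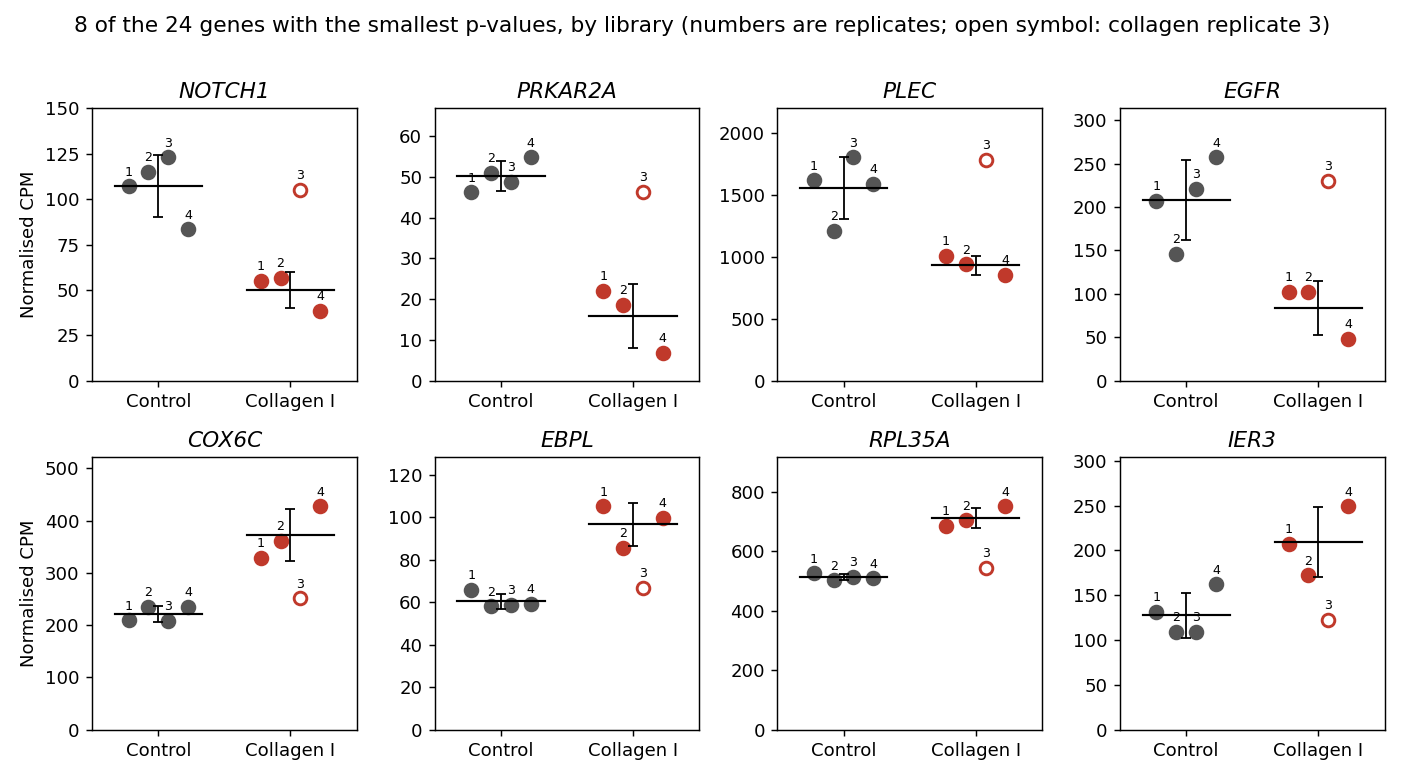
Normalised CPM (vertical axes, from 0) of 8 of the 24 genes with the smallest p-values in the 4 control and 4 collagen I libraries, numbered by replicate. Lines and bars are the mean and SD of the 4 control libraries and of collagen replicates 1, 2 and 4, and the open symbol is collagen replicate 3, which lies within or next to the control range in each panel (105 CPM for *NOTCH1*, 251 for *COX6C*).

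The receptors through which cells bind collagen did not pass the test in either direction. Of 16 tested collagen receptors and integrins, 0 were nominally higher and 3 nominally lower (18.8%, against 6.98% of all genes). Their median log2 fold change was −0.25, against 0.01 over all genes tested. With collagen replicate 3 included, none of the 16 was nominal and the median was −0.16. *DDR1* had 151, 152, 158 and 123 CPM in the control and 127, 130.2, 151 and 129 with collagen. These ranges overlap, and the log2 fold change was −0.18 (standard error 0.13, edgeR adjusted p = 0.636). *DDR2*, *ITGA11* and *ITGB3* were too low to be tested, *DDR2* at 0.673 CPM at most. *ITGA1* and *ITGA2*, the α chains of the collagen-binding integrins, had log2 fold changes of −0.33 and −0.37. *ITGB1*, their shared β chain, had 447, 434, 443 and 544 CPM in the control and 406, 386, 492 and 183 with collagen. Collagen replicate 4 lay far below the other 7 libraries, and the gene was not nominal with 8 libraries.

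The factors of the RUNX axis, which the study examined downstream of DDR1, showed small differences. *RUNX1* had 53.7 ± 11.7 CPM (SD, n = 4) in the control and 49.6 ± 10.0 (SD, n = 3) with collagen, a log2 fold change of −0.11 (standard error 0.20, edgeR adjusted p = 0.890). Its partner *CBFB* was at 61.7 ± 6.61 (SD, n = 4) and 70.3 ± 3.84 CPM (SD, n = 3), with a log2 fold change of 0.20 (standard error 0.16). *RUNX2* was at 5.18 CPM at most and *RUNX3* was listed at 0 in all 8 libraries. Among the RUNX1 targets named in the study, *PLEC* and *STAT3* were nominally lower (−0.73 and −0.34) and *DUT* and *ANP32B* nominally higher (both 0.34). *MYC* (−0.07), *CEBPD* (0.29) and *ID1* (0.32) were not nominal. Over the 10 tested genes of this list, with 2 nominal in each direction, the median was 0.20. With collagen replicate 3, *PLEC* was the 1 gene of the list that stayed nominal. The list was named by the study and is not independent evidence of a direction.

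Genes that build focal adhesions and the contractile actin network went both ways. Of 33 tested, 3 were nominally higher (9.09%, against 6.42% of all genes) and 9 nominally lower (27.3%, against 6.98%), with a median of −0.10. The lower ones include large linkers of actin and myosin regulators. *TLN1*, which couples integrins to actin, had 406, 321, 441 and 397 CPM in the control and 249, 291, 457 and 245 with collagen. Collagen replicate 3 was the highest of the 8 libraries and the other 3 collagen libraries lay below every control. *ROCK2*, a kinase that activates myosin, had the largest log2 fold change of the list, −1.34 (DESeq2 adjusted p = 0.00122), and *MYH9*, a non-muscle myosin heavy chain, was at −0.54 (DESeq2 adjusted p = 0.0160). *TAGLN*, an actin-binding protein of contractile cells, had 40.1, 28.3, 33.4 and 41.9 CPM in the control and 38.1, 54.6, 61.2 and 63.3 with collagen, and *MYL12A*, a myosin light chain, had a log2 fold change of 0.49 (DESeq2 adjusted p = 0.0202). *TAGLN* was 1 of 3 genes of this list that were nominally higher with collagen replicate 3 as well (*MYL12A* and *CNN3* were the others), against 3 nominally lower, *ROCK1* and *ROCK2* among them. *PTK2*, *PXN* and *VCL*, which encode the focal adhesion kinase, paxillin and vinculin, had log2 fold changes of −0.15, −0.10 and −0.33.

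Genes for the cells' own collagens, basement membrane and matrix enzymes mostly had lower means in collagen replicates 1, 2 and 4. Of 33 tested, 27 had a log2 fold change below 0 and 6 above. None (0) was nominally higher and 12 were nominally lower (36.4%, against 6.98% of all genes, median −0.26). With collagen replicate 3 this was 0 and 2 (median −0.18), without collagen replicate 4 it was 0 and 8, and with the length trend removed 0 and 5. The median transcript length of the list was 5515 bases, against 3250 over all genes tested. *HSPG2*, which encodes perlecan, had 86.7, 78.2, 100.1 and 49.5 CPM in the control and 41.2, 34.4, 73.4 and 17.3 with collagen, a log2 fold change of −1.34 (DESeq2 adjusted p = 0.00122). *COL4A1*, a chain of collagen IV, had 84.1, 83.2, 114 and 89.5 CPM in the control and 58.6, 66.6, 145 and 43.4 with collagen, so that replicate 3 was the highest of all 8 libraries. *LAMA5* (−0.69) and *AGRN* (−0.63) were also called lower by DESeq2 (adjusted p = 0.0140 and 0.0451). *COL1A1*, at 0 to 6.35 CPM, had a log2 fold change of −0.22, and *COL1A2* and *COL3A1* were not tested. The laminin-332 genes *LAMA3* and *LAMB3* had log2 fold changes of −0.20 and −0.03 with wide spreads between replicates (*LAMA3* from 502 to 1141 CPM in the control). In the hemidesmosome list of 9 genes, *PLEC*, *DST* and *ITGB4* were nominally lower (33.3%, against 6.98% of all genes) and none higher (median −0.31). *PLEC* and *DST* remained nominally lower with collagen replicate 3.

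Secreted matrix-remodelling genes held few nominal members. Of 23 tested plasminogen activators, metalloproteinases and inhibitors, 1 was nominally higher (4.35%) and 2 lower (8.70%, median 0.01), and of 16 matricellular genes, 0 and 1 (6.25%, median −0.09). Over all genes, 6.42% were nominally higher and 6.98% lower. The nominally higher gene of the first list was *PLAU*, urokinase, which activates plasmin at the cell surface. Its CPM was 42.6, 38.8, 40.5 and 64.9 in the control and 67.3, 53.3, 80.6 and 94.6 with collagen. The groups overlapped only through control replicate 4, and collagen replicate 3 sided with the other collagen libraries. The log2 fold change was 0.63 without and 0.67 with replicate 3, and nominal in both. Its receptor *PLAUR* had 43.0 to 49.4 CPM in the control and 52.9 to 62.9 in all 4 collagen libraries, which did not overlap, with a log2 fold change of 0.33. Of all tested genes, 1.57% lay higher in that way. *PLAT*, the tissue-type activator, was at −0.11. *THBS1*, thrombospondin 1, was lower at −0.66 (DESeq2 adjusted p = 0.0455), and *TNC* was at −0.29.

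Basal and myoepithelial genes had a median log2 fold change of 0.01 over 17 tested, with 1 nominally higher and 3 lower (17.6%, against 6.98% of all genes), and *KRT5*, *KRT14* and *KRT15* were at 0.05, 0.11 and −0.05. In 8 libraries the basal list had 1 nominally higher and 0 lower (median 0.03). Of 14 tested luminal genes 4 (28.6%, against 6.42% of all genes) were nominally higher and 0 lower (median 0.15), namely *KRT18*, *SLPI*, *AREG* and *XBP1*. In the fit with collagen replicate 3 and in that with the length trend removed, 0 were nominal, and the median in the latter was −0.02. *KRT7* and *KRT8* were at 0.19 and 0.01. Of 34 tested stress keratin and squamous differentiation genes 2 were nominally higher (5.88%, against 6.42% of all genes) and 0 lower. Their median was 0.24, but 0.10 with collagen replicate 3 and 0.01 without collagen replicate 4. With the length trend removed it was −0.05, and 0 were nominal. The mean log2 CPM of the list, relative to the 8 libraries, ran from −0.79 to 0.75 within the control. Of the 2 nominal genes, *CSTA*, a cornified envelope protein, was at 0.68 (DESeq2 adjusted p = 0.0242), whereas *KRT6A* was at −0.01 and *KRT6B* at 0.54. None of 15 mammary lineage transcription factors was nominal (median 0.01), with *TP63* and *SOX9* both at 0.01.

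Cell junction genes were lower in part. Of 27 tested, 1 was nominally higher and 6 lower (22.2%, against 6.98% of all genes, median −0.20). With collagen replicate 3 the counts were 0 and 3. *DSP*, desmoplakin, which anchors keratin at desmosomes, had 819, 545, 703 and 834 CPM in the control and 538, 479, 742 and 277 with collagen. Its log2 fold change was −0.74 (DESeq2 adjusted p = 0.0159). *PKP2*, plakophilin 2 of the same structure, was the 1 junction gene whose groups touched but did not overlap in 8 libraries, at 68.9 to 89.1 CPM in the control and 48.8 to 68.9 with collagen. Over all tested genes, 1.25% lay lower without overlap. *CDH1*, *CTNNA1* and *CTNNB1* of the adherens junction were at −0.28, −0.09 and −0.30. Of 18 tested genes of epithelial-mesenchymal transition, 2 were nominally higher (11.1%, against 6.42% of all genes) and 3 lower (16.7%, against 6.98%). Their median was −0.12. In 8 libraries 2 were nominally higher and 1 lower, and with the length trend removed 0 and 1. *VIM*, vimentin, had 745, 639, 784 and 742 CPM in the control and 792, 826, 842 and 1125 with collagen, and *TWIST1*, a transition-inducing factor, 11.8 to 17.1 and 17.4 to 24.3. The groups of both genes were apart in all 8 libraries, with log2 fold changes of 0.34 and 0.54. Over all tested genes, 1.57% lay higher in that way. *CDH2*, N-cadherin, was at −0.27 and *FN1*, fibronectin, at −0.58 without collagen replicate 3 and −0.18 with it.

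Immediate-early genes, the rapid targets of ERK and stress kinases, had a higher median with collagen than all genes tested, with and without collagen replicate 3. Of 18 tested, 8 were nominally higher (44.4%, against 6.42% of all genes) and 1 lower (5.56%, against 6.98%) with 7 libraries. With 8 libraries, 8 were higher and 0 lower, where 3.40% and 2.64% of all genes were. The median log2 fold change was 0.39 in both. It was 0.20 with the length trend removed, 0.24 with limma voom weights and 0.26 without collagen replicate 1. *FOSB*, a subunit of AP-1, had 51.7, 17.3, 36.1 and 13.2 CPM in the control and 75.9, 32.9, 127 and 101 with collagen. *JUN*, its partner, had 31.2, 29.6, 50.3 and 58.1 CPM in the control and 48.8, 50.4, 98.5 and 107 with collagen. In both genes the ranges overlapped and collagen replicate 3 was among the 2 highest of the 8 libraries. *FOS* had 227, 127, 153 and 66.4 CPM in the control and 273, 157, 384 and 265 with collagen, a log2 fold change of 0.70 without and 0.92 with replicate 3, nominal only with it. *DUSP1*, a phosphatase of MAP kinases, was at 212 to 416 CPM in the control and 364 to 449 with collagen (0.49 and 0.51). *EGR1* was at 0.58 and 0.61, and *JUND*, *JUNB*, *IER2* and *ZFP36* between 0.38 and 0.50 with 7 libraries. *FOSL2* went the other way, at −0.66 and −0.39. No gene of this list passed any adjusted test with 7 libraries in edgeR or DESeq2, and with the trend with transcript length removed 2 were nominally higher and 1 lower. The control libraries varied widely. The mean log2 CPM of the list, relative to the 8 libraries, was 0.16, −0.44, 0.01 and −0.46 in the control and 0.24, 0.03, 0.44 and 0.02 with collagen.

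**Figure D2:**
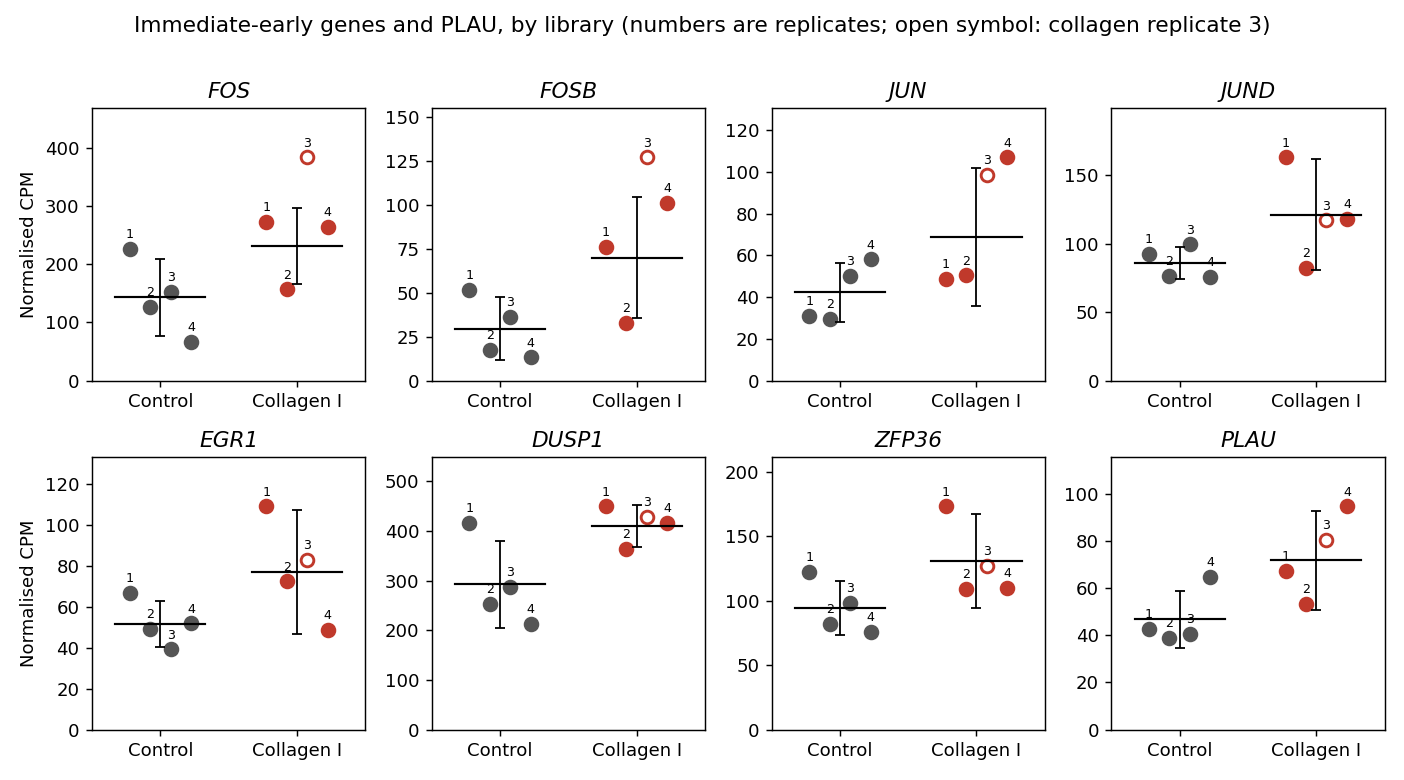
Normalised CPM (vertical axes, from 0) of 7 immediate-early genes and *PLAU* in the 4 control and 4 collagen I libraries, numbered by replicate, with the mean and SD of the controls and of collagen replicates 1, 2 and 4. Collagen replicate 3 (open symbol) lies with or above the other collagen libraries in most panels (384 CPM for *FOS*, 80.6 for *PLAU*), and the groups overlap in all.

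Receptors of the EGF and Notch pathways had lower means in collagen replicates 1, 2 and 4. Of 24 tested EGFR ligands and ERK feedback genes, 3 were nominally higher (12.5%, against 6.42% of all genes) and 1 lower (4.17%, against 6.98%). Their median was −0.03. The receptor *EGFR* itself was lower, whereas its ligands *AREG* (0.43) and *HBEGF* (0.88) and the ERK target *IER3* (0.72) were higher, and *ERBB2* and *ERBB3* were at −0.18 and −0.11. Of 14 tested Notch genes, 0 were nominally higher and 3 lower (21.4%, against 6.98% of all genes, median −0.33). In 8 libraries this was 0 and 1 (median −0.18). *NOTCH2* had 124, 91.0, 118 and 128 CPM in the control and 87.0, 79.3, 140.2 and 51.5 with collagen, a log2 fold change of −0.66 (DESeq2 adjusted p = 0.0269), and *NOTCH3*, at 6.47 CPM at most, was at −0.92. Of 25 YAP and TEAD targets, 0 were nominally higher and 7 lower (28.0%, against 6.98% of all genes, median −0.18), with 4 nominally lower in 8 libraries. The median transcript length was 5401 bases for this list and 5572 for the Notch list, against 3250 over all genes tested. With the length trend removed, 3 YAP and TEAD targets and 2 Notch genes were nominally lower. *TEAD1* had 146, 127, 115 and 191 CPM in the control and 102, 88.3, 158 and 70.0 with collagen. The commonly used YAP targets *CYR61*, *CTGF* and *ANKRD1* were at −0.11, −0.10 and −0.04, with overlapping groups.

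Of 19 tested TGF-β and SMAD targets, 0 were nominally higher and 3 (15.8%, against 6.98% of all genes) lower (median −0.16), with *SMAD7* and *SKIL* at −0.07 and 0.23. In 8 libraries, 0 of these targets were nominal (median −0.07). Neither the 11 tested ID and BMP genes nor the 17 tested Wnt genes had a nominal member (medians −0.01 and −0.18), with *ID1* at 0.32, *ID3* at 0.00 and *LGR4* at −0.33.

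Of 25 tested NF-κB, IL-1 and CXCL genes, 3 were nominally higher (6.42% of all genes were) and 0 lower (median 0.37, and 0.27 with collagen replicate 3). With the length trend removed, 2 were nominally higher and the median was 0.31. *CXCL2*, a neutrophil chemokine, had 45.4, 19.7, 32.7 and 19.9 CPM in the control and 78.3, 50.3, 32.0 and 43.5 with collagen, and *CSF3*, the granulocyte growth factor, 50.1, 46.8, 24.9 and 30.1 in the control and 65.2, 61.5, 48.0 and 63.0 with collagen. Collagen replicates 1 and 2 were the 2 highest libraries for *CXCL2*, and replicates 1, 2 and 4 the 3 highest for *CSF3*. DESeq2 called both with 7 libraries (log2 fold changes 0.97 and 0.74 in edgeR, DESeq2 adjusted p = 0.0356 and 0.0441). *IL1A* and *IL1B* were at 0.86 and 0.65 and were not nominal, and *IL1RN* was at −0.31. Of 36 interferon-stimulated and antigen presentation genes, 3 were nominally higher (*IFITM3*, *PSMB8* and *B2M*) and 0 lower (median 0.16), whereas *STAT2* and *IRF1* were at −0.17 and 0.42. This share of 8.33% was near the 6.42% of all genes. With the length trend removed, 0 genes of the list were nominal and its median was −0.06, the same as over all genes in that fit.

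**Figure D3:**
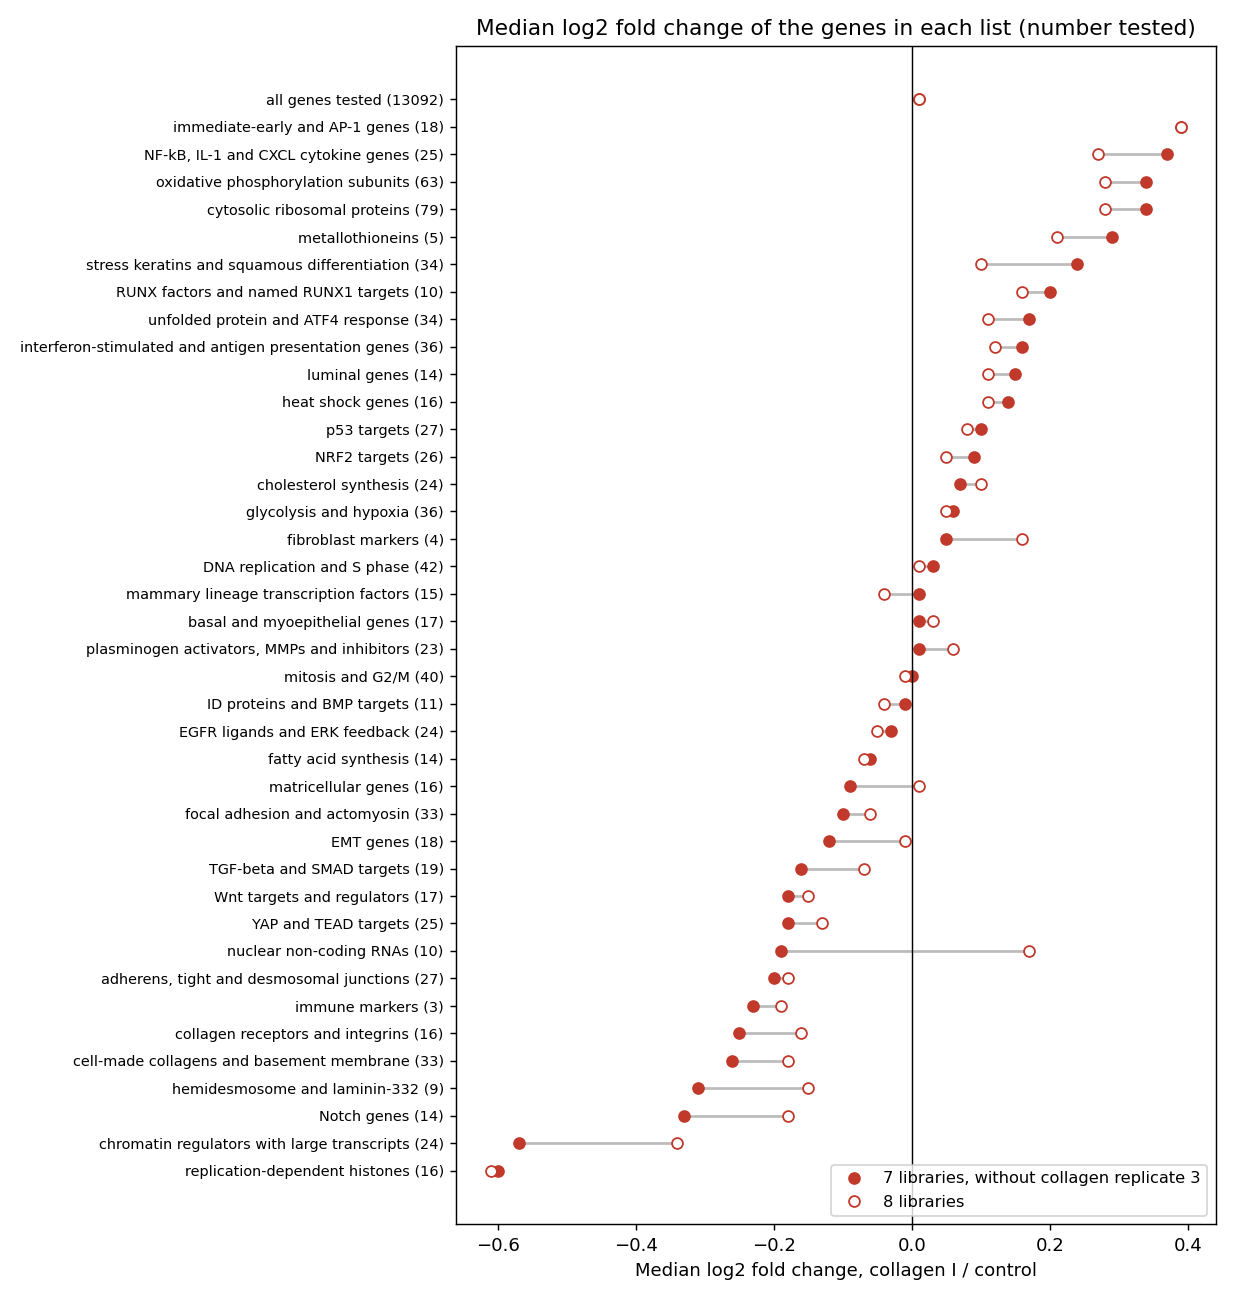
Median log2 fold change, collagen I against control, of the tested genes in each list (number in brackets) with 7 libraries (filled) and with collagen replicate 3 added (open). Immediate-early genes stay at 0.39 in both fits, large chromatin regulators move from −0.57 to −0.34, and all genes tested lie at 0.01.

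Proliferation genes were mixed. Of 40 mitotic genes, 2 were nominally higher (5.00%) and 4 lower (10.0%, median 0.00), and of 42 genes of DNA replication, 2 and 2 (4.76% each, median 0.03). Over all genes these shares were 6.42% and 6.98%. In 8 libraries the mitotic list had 2 and 2, and the replication list 0 and 1. *MKI67*, the proliferation marker, had 473, 399.6, 476 and 565 CPM in the control and 283, 336, 508 and 214 with collagen, a log2 fold change of −0.78 (DESeq2 adjusted p = 0.00117). *ASPM*, a spindle protein, was at −0.68 and had the smallest p-value of the mitotic list with 8 libraries. *CCNB2*, cyclin B2, went the other way, at 86.7 to 107 CPM in the control and 108 to 137 in all 4 collagen libraries (0.46). Such a separation was found for 1.57% of all tested genes. *TOP2A*, *CCNA2* and *MCM2* were at −0.38, −0.07 and −0.27. Replication-dependent histones had no nominal member of 16 tested, with a median of −0.60 at low counts.

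For the metabolic and stress lists, the shares below compare with 6.42% nominally higher and 6.98% lower over all genes. In cholesterol synthesis, 4 of 24 were nominally higher (16.7%) and 2 lower (8.33%), with a median of 0.07. With the length trend removed, 2 were higher and 1 lower. *MSMO1*, *EBP* and *IDI1*, enzymes of the pathway, were at 0.54, 0.54 and 0.44 and were called by DESeq2 (adjusted p = 0.0226, 0.0194 and 0.0274), while *HMGCS1* and *ACAT2* were at 0.04 and 0.11. Fatty acid synthesis had 0 higher and 2 lower (14.3%) of 14, *FASN* (−0.69) and *ACACA* (−0.55). Glycolysis and hypoxia genes had 3 higher (8.33%) and 0 lower of 36 (median 0.06), with *SLC2A1* at −0.09. Of 27 p53 targets 2 were nominally higher (7.41%) and 0 lower (*CDKN1A* at 0.23), and of 26 NRF2 targets 1 (3.85%) and 0 (*NQO1* at 0.30). In 8 libraries, the fatty acid, glycolysis and hypoxia, and p53 lists had 0 nominal members. Cholesterol synthesis then had 3 higher and 1 lower, and NRF2 targets 1 and 0. Of 34 genes of the unfolded protein and ATF4 responses 2 were higher and 2 lower (5.88% each, *HSPA5* at 0.17). Heat shock genes had 1 higher (6.25%) and 0 lower of 16 (*HSPA1A* at 0.29), and metallothioneins and zinc genes 0 and 1 of 5. Nuclear non-coding RNAs had 1 and 0 of 10, the former being *GAS5*, with *MALAT1* at 0.11 and *NEAT1* at −0.10. Of the marker lists of other cell types, 0 of 4 tested fibroblast, 0 of 2 endothelial and 0 of 3 immune genes were nominal.

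The largest counts by list were found for the protein synthesis and respiration machinery and for large chromatin regulators, in opposite directions. All lists were chosen with earlier results of these data known, so that their shares are descriptions. Over all genes, 6.42% were nominally higher and 6.98% lower. Of 79 cytosolic ribosomal protein genes, 63 (79.7%) were nominally higher and 0 lower (median 0.34), and 44 were with collagen replicate 3 included. DESeq2 called 29 of them. Of 63 subunits of oxidative phosphorylation, 35 (55.6%) were nominally higher and 0 lower (median 0.34), with 29 in 8 libraries. *NDUFA4* and *COX6B1*, subunits of the respiratory chain, were at 194 to 200.4 and 223 to 239 CPM in the control, and at 229.9 to 368 and 266 to 409 in all 4 collagen libraries. Of 24 chromatin regulators with large transcripts, 0 were nominally higher and 21 (87.5%) lower (median −0.57), but 4 with collagen replicate 3. *KMT2D*, a histone H3 methyltransferase, had 64.1, 68.9, 79.6 and 78.8 CPM in the control and 46.0, 42.4, 88.9 and 27.2 with collagen, the highest of the 8 libraries being replicate 3.

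The ribosomal protein and oxidative phosphorylation lists had short transcripts, with medians of 785 and 763 bases, against 3250 over all genes tested. The list of chromatin regulators was defined by large transcripts, so that its median of 10932 bases is part of its choice. Over all genes, split into 5 groups of about equal size by length, the log2 fold change followed the same order. The group with the shortest transcripts (61 to 1710 bases) had a median of 0.27, with 19.2% nominally higher and 0.391% lower. The group with the longest (5736 bases and more) had a median of −0.28, with 1.17% higher and 24.1% lower. In each library, the slope of log2 CPM on log2 transcript length, relative to the mean of the 8 libraries, was 0.0413 to 0.0776 in the control, −0.0278, −0.0431 and −0.193 in collagen replicates 1, 2 and 4, and 0.0361 in replicate 3. Of the 8 inhibitor libraries, 7 had slopes above 0 and DDR1i replicate 1 had −0.0638. RNA quality and library preparation were not analysed here, and their part in these slopes was not tested. With the trend with length removed from each library, 265 genes (2.07%) were nominally higher and 465 (3.64%) lower. Ribosomal proteins then had 4 nominally higher and 0 lower (median 0.06), and oxidative phosphorylation 4 and 0 (median 0.03). Chromatin regulators had 0 and 5, with a median of −0.33 and all 24 log2 fold changes below 0. The median over all genes in that fit was −0.06. Named genes with an unadjusted edgeR p of 0.000356 or less in that fit included *EGFR*, *NOTCH1*, *PRKAR2A*, *ROCK2*, *ASXL2* and *PTPRG*, all lower. The higher genes *LSM3*, *VMA21* and *RPS27L* were also among them, and 0 genes passed after adjustment. The canonical transcripts of these higher genes have 3359, 4715 and 6110 bases, above the median of 3250. The cutoff is the p-value of *NOTCH1* itself. All but *ROCK2* had been named for their small p-values in the main fit, so that their place here is a description.

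**Figure D4:**
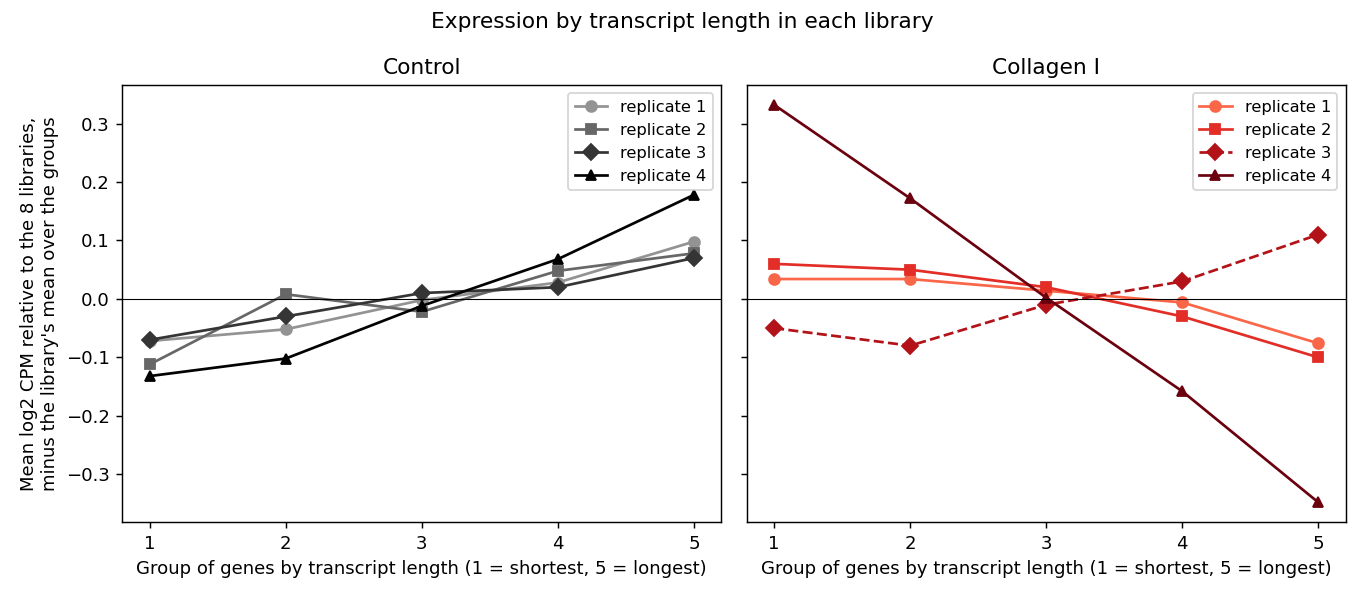
Mean log2 CPM of the genes in 5 groups of transcript length (horizontal axis, 1 = shortest), relative to the mean of the 8 libraries and centred within each library, for the 4 control (left) and 4 collagen I libraries (right). Collagen replicates 1, 2 and 4 fall with length, most in replicate 4 (slope −0.193), and collagen replicate 3 (dashed) rises like the controls.

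For most nominal genes, collagen replicate 3 lay within the range of the controls. Of the 914 genes that were nominally lower without it, its CPM lay within the control range for 710 (77.7%) and below it for 86 (9.41%). Of the 840 nominally higher genes, it lay within the control range for 620 (73.8%) and above it for 146 (17.4%). When it was added to the fit, 420 (50.0%) of the higher and 319 (34.9%) of the lower genes remained nominal in the same direction. In the whole table, all 4 collagen libraries were above all 4 controls for 206 genes (1.57% of the tested genes) and below them for 164 (1.25%). The 206 included 14 ribosomal protein and 7 oxidative phosphorylation genes. Of the 164, 3 are given here for their small p-values with 8 libraries, chosen after their values were seen. *PIK3CA*, the catalytic subunit of PI3 kinase α, had 28.0, 22.2, 24.2 and 30.4 CPM in the control and 14.6, 14.3, 20.0 and 11.5 with collagen. *PRKCI*, a kinase of cell polarity, and *PKN2* were at 70.5 to 81.4 and 59.3 to 67.8 CPM in the control and at 47.8 to 58.7 and 26.6 to 50.6 with collagen. The log2 fold changes of these 3 genes with 8 libraries ranged from −0.79 (*PIK3CA*) to −0.51 (*PRKCI*), none of them past the adjusted test (edgeR adjusted p = 0.803 for each).

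The inhibitor groups, which received the same collagen, are given beside these values without a test. The genes were chosen for small p-values between the control and collagen replicates 1, 2 and 4. Where the inhibitor means lie relative to those groups is therefore a description. Over all 4 collagen libraries, the mean CPM was 63.9 for *NOTCH1*, 120.4 for *EGFR*, 1144 for *PLEC*, 671 for *RPL35A* and 187 for *IER3*. Collagen replicate 3 had 105, 230.4, 1779, 543 and 122 CPM, in the same order. With DDR1i and RUNXi, *NOTCH1* was at 85.9 ± 12.8 and 78.5 ± 8.39 CPM (SD, n = 4 each), between the means of the control (107) and of collagen replicates 1, 2 and 4 (50.1). *EGFR* was at 179 ± 53.6 and 168 ± 25.3 CPM (SD, n = 4 each), against 208 in the control and 83.7 in collagen replicates 1, 2 and 4. *PLEC* was at 2087 ± 664 and 1720 ± 366 (SD, n = 4 each), against 1552 in the control and 932 in collagen replicates 1, 2 and 4. *RPL35A* was at 565 ± 68.9 and 542 ± 49.9 (SD, n = 4 each). This was between the means of the control (513) and of collagen replicates 1, 2 and 4 (714), with collagen replicate 3 at 543. *IER3* was at 263 ± 64.1 and 142 ± 37.8 (SD, n = 4 each), against 209 in collagen replicates 1, 2 and 4 and 128 in the control. Most inhibitor libraries had slopes with transcript length above 0, as did the control and collagen replicate 3. The part of length in these values was not tested.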

How the data were processed

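RNA from 16 MCF10A samples was sequenced, and the 8 libraries of the control and collagen groups were analysed here, with groups and replicates taken from the labels. The authors deposited raw counts of reads per gene after alignment with STAR to GRCh37 (hg19). The counting tool, annotation and strand use are not given in the sources used here, so that counts of overlapping, antisense and paralogous genes are uncertain. The table has 26475 genes. All columns were assigned to a library. Positions and the length of the canonical transcript came from GENCODE lifted to GRCh37 (22606 names matched as current and 1315 as older symbols).

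Collagen replicates 1, 2 and 4 were compared with 4 controls in R 4.3.3 with edgeR 4.0.16 (TMM, filterByExpr, robust quasi-likelihood test) and Benjamini-Hochberg adjustment at 0.05. CPM values were normalised over all 16 libraries, and log2 CPM used a prior count of 2. The biological coefficient of variation was 0.353. DESeq2 1.42.0 and limma 3.58.1 served as alternatives. Length trends were removed by splines with 4 degrees of freedom. Tests were tried on simulated data. Replicate libraries differed beyond sampling noise in every pair, and each was counted as 1 sample.

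The members and the 40 gene lists were chosen with earlier results of these data known. Named genes were DDR1, DDR2, the RUNX factors, CBFB and RUNX1 targets of the study, the 12 genes of either direction with the smallest p-value, and members of each list: those called, or up to 3 in list order, and others singled out after their values were seen. Alternatives covered the test, scaling, filter, groups, replicate block, threshold, length, genes detected, thinning and left-out libraries. Python 3.11.15, pandas 2.3.3 and matplotlib 3.10.9 were used. Some list members are not reported here.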

Additional observations from a re-analysis of the deposited data

Results flagged for a closer look

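In 86 groups of 4 libraries (7 measures of the libraries and the CPM of 36 named genes, in 2 groups each), the gap between the most distant library and its nearest neighbour was compared with the range of the group by Dixon's rule. It exceeded the 95% critical value in 11 groups, where chance flags about 1 in 20. Collagen replicate 1 had a total of 17570707 counts against 26642600 to 27695778 in the other collagen libraries. Control replicate 3 lay at 62.4 on the second principal component against −15.6 to −7.48. Collagen replicate 4 had a TMM factor of 0.901 against 0.994 to 1.01. Collagen replicate 3 stood apart for *DDR1* (151 CPM against 127 to 130.2), *PLEC* (1779 against 852 to 1006) and *SPEN* (107 against 54.3 to 59.8). Collagen replicate 1 stood apart for *CBFB* (74.8 CPM against 67.7 to 68.5). Among the controls, replicate 2 stood apart for *STAT3* (121 CPM against 155 to 161), replicate 1 for *EBPL* (65.7 against 58.0 to 59.2), and replicate 3 for *SRRM2* (735 against 569 to 596) and *URB1* (117 against 91.0 to 95.4).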

How the results depend on the processing

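The count of 0 genes past the adjusted edgeR test held with collagen replicate 3, DESeq2 size factors, at least 10 counts in every library, control replicates 2 and 3 left out, the length trend removed, genes detected as a covariate, thinning, and each library left out in turn (range 0 to 0). It became 284 genes without a filter on low counts (106 higher and 178 lower), 313 with all 4 groups in the fit (112 and 201), 414 with DESeq2 (183 and 231) and, with limma voom weights, added after seeing the data, 692 (290 and 402). Without adjustment it was 1754 (840 and 914). The cause of these differences was not tested. With the replicate block 0 genes passed, with collagen replicate 3 also 0. For collagen replicates 1, 2 and 4, deviations from the group mean correlated with those of the same-numbered control by 0.0168, 0.0214 and 0.2. Only replicate 4 matched its own number best. When collagen replicate 3 was added, replicates 2 (0.0493) and 4 (0.19) matched their own number best, and replicates 1 and 3 did not. Numbers were not taken as pairs in the main fit. The 414 DESeq2 calls fell to 0 with collagen replicate 3, and ranged from 92 (without collagen replicate 4) to 450 with 1 library left out, with 132 without control replicate 1. The 1754 nominal genes became 782 with collagen replicate 3, 1129 with that library and the replicate block, and 730 with the length trend removed, and ranged from 946 (without collagen replicate 4) to 1805 with 1 library left out. The share of nominal genes that were lower was 52.1%, and 63.7% with the length trend removed. Over 34 tested named genes, 7 of 747 alternative log2 fold changes changed sign, in *RUNX1*, *RUNX2* and *MYC*, and 95 were past the adjusted test of their alternative. List medians changed sign in 83 of 858 alternatives, over 22 of 39 lists. With collagen replicate 3, the medians of matricellular genes, lineage factors and nuclear non-coding RNAs changed sign. Depth limits mainly control replicates 2 and 3, in which 9.62% and 7.42% of tested genes had 0 counts.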
